A study of Mus musculus with 9 samples.

Results

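The mitochondrial ribosomal protein genes are the nuclear genes whose mouse symbols begin with *Mrpl* or *Mrps*. They were taken as every symbol made of 1 of these prefixes, a number and at most 1 further letter, with symbols marked as pseudogenes left out. The rule found 78 of the 55276 symbols in the table, 49 named for the large subunit (*Mrpl*) and 29 named for the small subunit (*Mrps*), and left out 5 pseudogene symbols. All 78 passed the filter on low counts, the lowest count of any of them in any library being 112, so that every member entered the tests.

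The study asked which genes lie downstream of *Vcam1* in PPTR cells, a mouse line of intrahepatic cholangiocarcinoma, the cancer of the bile ducts within the liver. The line was adapted to flat culture from liver cancer organoids that carry Prom1CreERT2, a tamoxifen-inducible Cre under the progenitor gene *Prom1*, and Rosa-ZsGreen, a green reporter. Control and knockout cells share these and the rest of the line's genotype. RNA was sequenced from control cells (labelled WT, Vcam1ctrl in the study) and from the single-cell clones Vcam1KO1 and Vcam1KO2, edited in exon 2 of *Vcam1* by CRISPR/Cas9, with 3 libraries of each and 9 in all, grown in medium with serum. Each knockout group is 1 clone, so the 6 Vcam1KO libraries stand for 2 clones. A clone's own history and the loss of *Vcam1* cannot be told apart within 1 clone, and the libraries of 1 group came from different passages of the same cells. 

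Mitochondria keep a small genome of their own, and the messages it encodes, all for subunits of the respiratory chain and the ATP synthase, are translated inside the organelle by a ribosome that differs from the one in the cytosol. Its RNAs are made in the mitochondrion, whereas every one of its proteins is encoded in the nucleus, made in the cytosol and imported. Part of these proteins descend from bacterial ribosomal proteins, and part were added in the evolution of mitochondria.

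By structure the list held 51 proteins of the large subunit and 26 of the small subunit. *Mrps30* (mL65) and *Mrps18a* (mL66) carry a small subunit symbol although their proteins sit in the large subunit. *Mrps36* (Kgd4) encodes a subunit of the alpha-ketoglutarate dehydrogenase complex and not a ribosomal protein. Of the ribosomal proteins, 47 were classed as having a bacterial homologue and 30 as specific to mitochondria. In protein names such as bS6m or mL50, the first letter gives the origin (u universal, b bacterial, m mitochondrial) and the second the large (L) or small (S) subunit. The classes did not follow the first letter throughout. *Mrps18a* (mL66) was placed among the 47 and its paralogue *Mrps18b* (mS40) among the 30.

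Libraries held between 53415907 and 125223073 counts, of which the 78 genes took between 0.316% and 0.428%. *Vcam1* itself lay at 221 to 329 CPM (counts normalised to library size, scaled by TMM factors) in the control libraries and at 83.0 to 128 CPM in the 6 Vcam1KO libraries. Markers of the labelled bile duct cells had changed with the clones. *Krt19*, a bile duct keratin, had at least 126852 counts in every control library and at most 16 in any Vcam1KO library, *Epcam* had at least 943 and at most 6, and 7 of 10 tested biliary and progenitor markers were called lower, 1 higher. Of 10 tested fibroblast and stellate markers, 8 were called higher, and in Vcam1KO1 alone 7 were called higher and 1 lower. The list summed to 432 to 837 CPM in the control libraries and to 6771 to 15978 CPM in the Vcam1KO libraries. *Lrat* stayed at 0 or 1 counts. *Dcn* had 4613 to 7554 counts in the control, 144 to 523 in Vcam1KO1 and 3493 to 8004 in Vcam1KO2. The haematopoietic markers summed to 7.01 to 20.8 CPM over all 9 libraries with *Cd3e* at 0 or 1 counts, and of 4 tested 1 was called higher and 2 lower. *Lyz2* had 6 to 15 counts in the control, 229 to 440 in Vcam1KO1 and 5 to 23 in Vcam1KO2. *Csf1r* had 192 to 991, 54 to 147 and 30 to 36 counts in the same order. The endothelial markers summed to 1.14 to 5.12 CPM, with 1 of 4 tested called higher. The hepatocyte markers summed to 44.6 to 177 CPM in the control and 0.78 to 3.93 CPM in the clones, with 4 of 5 tested called lower. Library 3 of Vcam1KO1 stood apart in 10 proliferation genes, which summed to 238 CPM there and to 844 to 2313 CPM in the other 8 libraries. The part of these shifts in the results that follow was not tested. Fewer cells of a kind and less RNA per cell cannot be told apart in such bulk libraries.

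Against Vcam1ctrl, the Vcam1KO libraries showed a mixed pattern, with few large changes. Of the 78 genes, 33 were called (42.3%), 12 higher and 21 lower, at a p under 0.05 in the edgeR quasi-likelihood test, adjusted over 17672 genes by the Benjamini-Hochberg method. Of all genes tested, 43.0% were called, 21.7% higher and 21.2% lower. The share called thus lay near that of all genes. The changes were smaller: 3 of the 78 (3.85%) were called and changed at least 2-fold, against 28.3% of all genes. Every member had at least 112 counts in each library, whereas the 17672 genes include many of lower count. Members and other genes of like level were not compared. Every Vcam1KO library lay above every control library in 10 of the 78 members, against 21.2% of all genes, and below in 20 of the 78, against 23.0% of all genes. The median log2 difference of the members was -0.07 and their interquartile range was 0.66, whereas all genes tested had a median of 0.07 and an interquartile range of 1.33. When library 3 of Vcam1KO1 was left out, 14 members were called higher and 18 lower. Without library 1 of the control the counts were 6 and 12, and without library 2 or library 3 of the control 8 and 12 or 5 and 22. Leaving out library 1 of Vcam1KO1 or library 2 or 3 of Vcam1KO2 left 7, 7 and 6 higher calls. The higher calls over all genes, 3839 of 17672 in the full fit, also fell in these fits. They were 2623 of 18236, 2771 of 18447 and 2862 of 18255 without library 1, 2 or 3 of the control. Without library 1 of Vcam1KO1 or library 2 or 3 of Vcam1KO2 they were 3363 of 18468, 3760 of 18369 and 3774 of 18515. The count of higher calls among the members thus varied with the libraries used, and the cause was not tested.

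**Figure D1:**
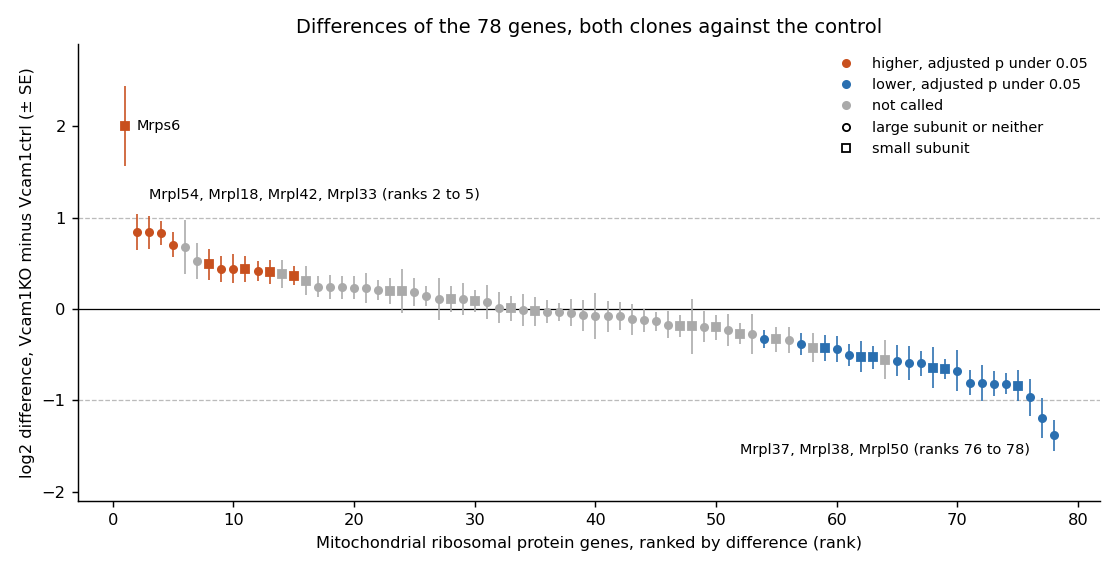
The 78 mitochondrial ribosomal protein genes in order of their log2 difference between the 6 Vcam1KO and the 3 Vcam1ctrl libraries, with standard errors from edgeR; dashed lines mark a 2-fold change. *Mrps6* stands alone at 2.0, and *Mrpl50* and *Mrpl38* are the members past 2-fold on the low side.

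The summed level of all members, *Mrps6* included, did not separate the groups. It was 3648, 4217 and 3314 CPM in the control libraries, 3621, 3576 and 3274 CPM in the Vcam1KO1 libraries and 3209, 3684 and 3918 CPM in the Vcam1KO2 libraries. The ranges of the 3 groups overlapped, and the control libraries alone spanned nearly the whole of it. *Mrps6* alone gave 347 to 394 CPM of the sum in Vcam1KO1 and 61.6 to 68.1 CPM in the control. With *Mrps6* taken out, a choice made after its values were seen, every Vcam1KO1 library lay below every control library in this sum. Vcam1KO2 still overlapped with the control. The large subunit genes summed to 2024 to 2271 CPM in Vcam1KO1, below every control library (2301 to 2942 CPM), and to 2172 to 2620 CPM in Vcam1KO2. The small subunit genes without *Mrps6* summed to 921 to 1177 CPM in the control, 825 to 934 CPM in Vcam1KO1 and 885 to 1081 CPM in Vcam1KO2.

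By subunit and origin the calls were as follows. Among the 51 large subunit genes 7 were called higher (13.7%) and 15 lower (29.4%), with a median log2 difference of -0.07. Among the 26 small subunit genes 5 were higher (19.2%) and 6 lower (23.1%), with a median of -0.11. By origin, 8 of the 47 genes with a bacterial homologue were higher (17.0%) and 10 lower (21.3%), with a median of 0.08. Of the 30 specific to mitochondria 4 were higher (13.3%) and 11 lower (36.7%), with a median of -0.21. Of all genes tested, 21.7% were called higher and 21.2% lower. The paralogues *Mrps18a*, not called, and *Mrps18b*, called lower, stand in different classes here, the first among the 47 and the second among the 30. No test was run between these classes.

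*Mrps6* encodes bS6m of the small subunit and lies on the forward strand at chr16:92058270-92112227 (GRCm38). Its level was 61.6, 68.1 and 67.3 CPM in the control libraries, 388, 347 and 394 CPM in the Vcam1KO1 libraries and 119, 151 and 178 CPM in the Vcam1KO2 libraries. Every Vcam1KO library lay above every control library, and the clones did not overlap. The log2 difference of both clones from the control was 2.0 (SE 0.43, adjusted p = 0.0050, edgeR quasi-likelihood test, Benjamini-Hochberg adjusted), and it was 2.52 (SE 0.16, adjusted p = 1.3e-06, same edgeR test) in Vcam1KO1 and 1.19 (SE 0.15, adjusted p = 1.4e-04, same edgeR test) in Vcam1KO2. Per kilobase of its median coding transcript *Mrps6* had the highest mean level of the 78 over the 9 libraries, 233 CPM per kilobase, ahead of *Mrpl33* with 139 and *Mrps21* with 114; the lowest were *Mrpl47* with 4.11 and *Mrpl1* with 4.21. In the control libraries alone *Mrps6* lay at 77.6 CPM per kilobase, below 12 other members, of which *Mrpl20* with 127 and *Mrpl52* with 124 were the highest.

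*Mrps6* shares its first exon with *Slc5a3*, the gene of a sodium-coupled transporter of the osmolyte myo-inositol. Of the distinct 31-base stretches in the *Mrps6* transcripts, 15.8% also occur in *Slc5a3* transcripts and 33.8% in those of the overlapping model *Gm49711*, so the assignment of some read pairs between these genes is uncertain. *Slc5a3* stood at 30.1, 24.2 and 30.5 CPM in the control, 140, 103 and 113 CPM in Vcam1KO1 and 48.8, 43.9 and 59.9 CPM in Vcam1KO2. Its order of groups was that of *Mrps6*, with a log2 difference of 2.07 (SE 0.17, adjusted p = 6.6e-06, edgeR quasi-likelihood test, Benjamini-Hochberg adjusted) in Vcam1KO1 and 0.85 (SE 0.16, adjusted p = 0.0019, same edgeR test) in Vcam1KO2. *Gm49711* had a mean of at most 0.99 CPM in any group.

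**Figure D2:**
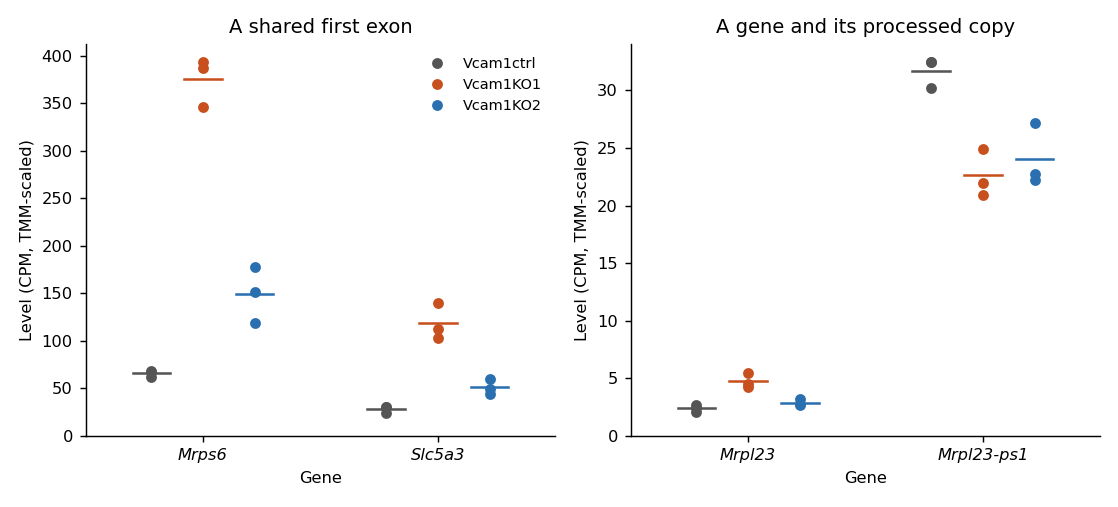
Levels in CPM of *Mrps6* and *Slc5a3*, which share a first exon, and of *Mrpl23* and its processed pseudogene *Mrpl23-ps1*, in the 3 libraries of each group; bars are means. *Mrps6* and *Slc5a3* are highest in Vcam1KO1 and lowest in the control, whereas *Mrpl23* has 4.26 to 5.44 CPM in Vcam1KO1 and 2.07 to 3.22 CPM in the other groups, and *Mrpl23-ps1* is lower in both clones than in the control.

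The balance of the subunits was computed with and without *Mrps6*. The summed CPM of the large subunit genes was 2.33 to 2.36 times that of the small subunit genes in the control libraries, 1.66 to 1.77 times in Vcam1KO1 and 2.08 to 2.16 times in Vcam1KO2, with no overlap between groups. With *Mrps6* left out, a choice made after its values were seen, the ratio was 2.49 to 2.50 in the control, 2.42 to 2.45 in Vcam1KO1 and 2.42 to 2.45 in Vcam1KO2. The clones then overlapped each other and remained just below the control.

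The promoters of 4 genes that the results turn on are shown, *Mrps6* and *Mrpl42* from the higher side and *Mrpl50* and *Mrpl37* from the lower side, each from 250 bases before to 50 bases after the start (RefSeq, GRCm38.p6), in the direction of transcription. Capitals mark a match to 1 of 4 short motifs.

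Mrps6, chr16:92058086-92058385, forward strand: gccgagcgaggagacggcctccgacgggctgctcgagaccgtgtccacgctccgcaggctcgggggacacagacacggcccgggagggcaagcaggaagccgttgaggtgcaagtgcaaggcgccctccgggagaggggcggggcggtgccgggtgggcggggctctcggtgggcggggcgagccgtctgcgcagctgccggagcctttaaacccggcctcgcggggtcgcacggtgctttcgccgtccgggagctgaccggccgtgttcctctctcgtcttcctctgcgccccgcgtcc
Mrpl42, chr10:95501900-95502199, reverse strand: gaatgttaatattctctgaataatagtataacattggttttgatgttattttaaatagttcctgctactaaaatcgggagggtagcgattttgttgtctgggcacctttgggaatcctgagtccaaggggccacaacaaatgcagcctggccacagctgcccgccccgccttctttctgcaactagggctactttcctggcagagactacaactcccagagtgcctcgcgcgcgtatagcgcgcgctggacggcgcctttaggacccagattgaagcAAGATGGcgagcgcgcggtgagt
Mrpl50, chr4:49521034-49521333, reverse strand: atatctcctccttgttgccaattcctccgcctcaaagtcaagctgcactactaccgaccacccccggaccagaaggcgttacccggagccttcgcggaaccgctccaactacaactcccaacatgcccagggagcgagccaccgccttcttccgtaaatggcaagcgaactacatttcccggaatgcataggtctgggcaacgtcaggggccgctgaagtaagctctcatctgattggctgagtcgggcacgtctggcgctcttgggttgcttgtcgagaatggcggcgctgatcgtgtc
Mrpl37, chr4:107066817-107067116, reverse strand: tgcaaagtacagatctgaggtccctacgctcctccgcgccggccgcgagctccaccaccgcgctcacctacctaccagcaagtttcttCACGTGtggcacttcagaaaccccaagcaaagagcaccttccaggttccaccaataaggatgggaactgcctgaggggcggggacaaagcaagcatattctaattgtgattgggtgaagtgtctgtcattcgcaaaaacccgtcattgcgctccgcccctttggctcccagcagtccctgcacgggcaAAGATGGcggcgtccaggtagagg

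The motifs, searched on both strands, were the ETS core CCGGAAG, the YY1 core AAGATGG, the NRF1 half-site GCATGCG and the E-box CACGTG, all of them letters known from promoters of genes for mitochondrial proteins. Promoters were held for 69 of the 78 genes, 75 promoters in all. The ETS core occurred in 34.7% of them, against 15.6% of the promoters of tested protein-coding genes and 8.86% of all promoters of this length. The YY1 core occurred in 17.3% against 6.75% of tested genes and 6.34% of all, the NRF1 half-site in 10.7% against 5.69% and 3.58%, and the E-box in 9.33% against 9.25% and 7.15%. *Mrpl42* and *Mrpl37* hold the YY1 core and *Mrpl37* also the E-box, while these letters are not in the windows of *Mrps6* and *Mrpl50*. The ETS core was found in 5 of the 10 genes called higher that had a promoter here, in 7 of 19 called lower and in 14 of 40 not called.

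After *Mrps6*, the highest differences belonged to large subunit genes. *Mrpl54* (mL54, chr10:81264713-81266934) had 29.5, 44.5 and 28.3 CPM in the control libraries, 54.3, 55.5 and 52.2 CPM in Vcam1KO1 and 55.4, 70.2 and 78.9 CPM in Vcam1KO2. *Mrpl18* (uL18m, chr17:12911349-12916345), a protein of the part of the large subunit that holds the 5S RNA in bacteria, had 38.5, 36.2 and 27.8 CPM, then 60.6, 62.1 and 50.9 CPM, and then 52.8, 58.3 and 81.6 CPM in the same order of groups. *Mrpl42* (mL42, chr10:95480805-95501940) had 39.6, 38.9 and 37.7 CPM, then 71.4, 67.1 and 53.3 CPM, and then 66.4, 75.3 and 79.6 CPM. In all of these genes every Vcam1KO library lay above every control library, while the clones overlapped each other in part. The log2 differences were 0.84 (SE 0.20, adjusted p = 0.0078, edgeR quasi-likelihood test, Benjamini-Hochberg adjusted) for *Mrpl54*, 0.84 (SE 0.18, adjusted p = 0.0043, same edgeR test) for *Mrpl18* and 0.83 (SE 0.13, adjusted p = 9.5e-04, same edgeR test) for *Mrpl42*.

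*Mrpl33* (bL33m, a short protein of the large subunit, chr5:31596935-31664384) rose by 0.70 on the log2 scale (SE 0.14, adjusted p = 0.0031, edgeR quasi-likelihood test, Benjamini-Hochberg adjusted), from 50.5, 52.8 and 37.5 CPM in the control to 68.1 to 89.5 CPM in Vcam1KO1 and 70.5 to 77.0 CPM in Vcam1KO2. *Mrpl11* (uL11m, at the base of the stalk on which translation factors bind), *Mrps34* (mS34) and *Mrps21* (bS21m) rose by 0.41 (SE 0.11), 0.40 (SE 0.13) and 0.36 (SE 0.11), with adjusted p of 0.013, 0.034 and 0.022 in the same edgeR test. Their group means were 40.6, 39.1 and 38.6 CPM in the control and 54.0, 51.6 and 49.7 CPM in the 6 Vcam1KO libraries, without overlap. These 3 calls were near the threshold: each was lost without the filter on low counts (adjusted p = 0.0785, 0.122 and 0.123 from edgeR) and in at least 1 fit that left out a library. *Mrps11*, *Mrpl3*, *Mrpl48* and *Mrps2* were also called higher, at 0.44 to 0.49, but their libraries overlapped with the control. Set against the control by clone, *Mrps11* was called only in Vcam1KO1 (adjusted p = 0.095 in Vcam1KO2, same edgeR test). *Mrpl3*, *Mrpl48* and *Mrps2* were called only in Vcam1KO2 (adjusted p = 0.057, 0.11 and 0.056 in Vcam1KO1, same edgeR test).

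The lowest differences were those of 3 large subunit genes specific to mitochondria. *Mrpl50* (mL50, reverse strand of chr4:49512596-49521093) had 47.8, 68.2 and 43.4 CPM in the control libraries, 24.4, 23.5 and 16.9 CPM in Vcam1KO1 and 19.5, 19.4 and 18.6 CPM in Vcam1KO2. *Mrpl38* (mL38, a relative of phosphatidylethanolamine-binding proteins, chr11:116131817-116138868) had 163, 172 and 135 CPM, then 51.8, 54.7 and 49.6 CPM, and then 81.4, 93.1 and 79.1 CPM. *Mrpl37* (mL37, chr4:107055874-107066868) had 73.7, 84.6 and 71.1 CPM, then 48.0, 50.1 and 45.3 CPM, and then 27.9, 32.0 and 31.2 CPM. Every Vcam1KO library lay below every control library in each, with Vcam1KO1 the lower clone for *Mrpl38* and Vcam1KO2 the lower for *Mrpl37*. The log2 differences of both clones from the control were -1.38 (SE 0.17, adjusted p = 2.1e-04, edgeR quasi-likelihood test, Benjamini-Hochberg adjusted) for *Mrpl50*, -1.20 (SE 0.22, adjusted p = 0.0020, same edgeR test) for *Mrpl38* and -0.97 (SE 0.20, adjusted p = 0.0042, same edgeR test) for *Mrpl37*.

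**Figure D3:**
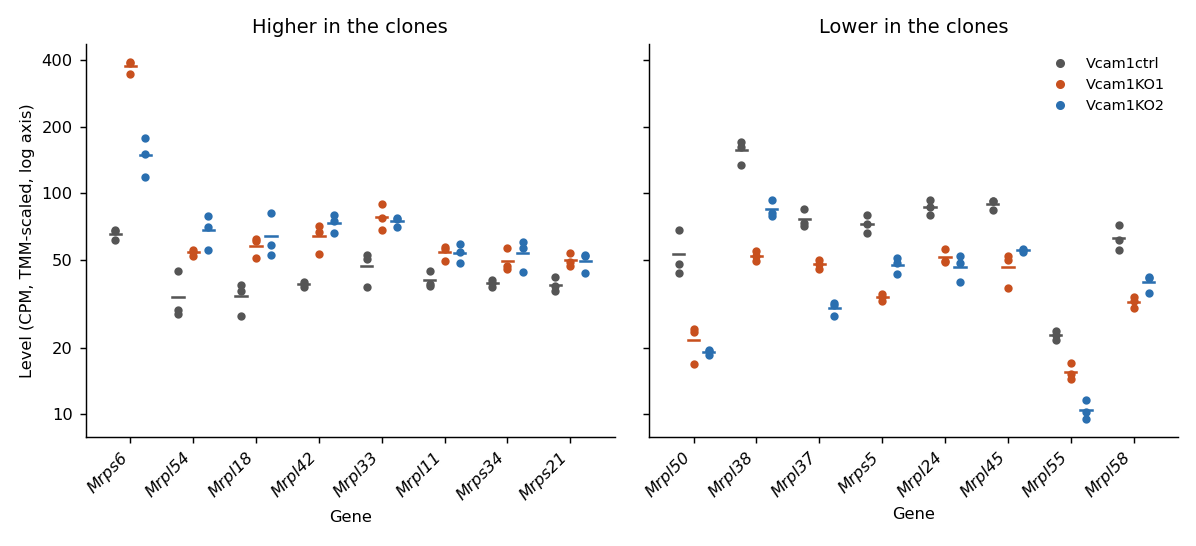
Levels on a log axis of the 8 members with the highest and the 8 with the lowest log2 difference among those called in Vcam1KO against Vcam1ctrl without overlap of libraries; points are libraries and bars are group means. *Mrps6* in Vcam1KO1, at 347 to 394 CPM, lies above every other point shown.

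Of the other 5 on the low side, 2 have known roles at the edges of translation. *Mrpl45* (mL45, which anchors the ribosome to the inner membrane near the protein insertion machinery) had 91.9, 92.3 and 84.3 CPM in the control, 51.8, 49.7 and 37.4 CPM in Vcam1KO1 and 54.5, 56.2 and 55.3 CPM in Vcam1KO2. *Mrpl58* (mL62), a peptidyl-tRNA hydrolase that frees stalled ribosomes, had 61.8, 71.9 and 55.4 CPM, then 34.1, 32.6 and 30.3 CPM, and then 35.5, 41.4 and 42.0 CPM. Neither gene overlapped between clones and control. They fell by 0.82 (SE 0.13, adjusted p = 0.0010) and 0.81 (SE 0.14, adjusted p = 0.0013) on the log2 scale in the edgeR quasi-likelihood test, Benjamini-Hochberg adjusted. *Mrps5* (uS5m), *Mrpl24* (uL24m) and *Mrpl55* (bL31m) fell by 0.84 (SE 0.17), 0.82 (SE 0.12) and 0.81 (SE 0.20), with adjusted p of 0.0030, 4.5e-04 and 0.0097 in the same edgeR test. The remaining 13 genes called lower lay between -0.67 and -0.33.

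Of the proteins of the stalk, which recruits the translation factors, *Mrpl12* (bL12m, also known as a partner of the mitochondrial RNA polymerase) had 135, 199 and 127 CPM in the control, 80.2, 83.4 and 70.6 CPM in Vcam1KO1 and 93.7, 116 and 133 CPM in Vcam1KO2. The libraries of the control and of Vcam1KO2 overlapped. The log2 difference was -0.67 (SE 0.22, adjusted p = 0.036, edgeR quasi-likelihood test, Benjamini-Hochberg adjusted), with an adjusted p of up to 0.17 when a library was left out. *Mrpl10* (uL10m), which carries the copies of bL12m, fell by 0.50 (SE 0.12, adjusted p = 0.0078, same edgeR test), from 105 to 117 CPM in the control to 82.5 to 85.6 CPM in Vcam1KO1 and 64.4 to 72.0 CPM in Vcam1KO2.

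The 3 paralogues named *Mrps18* did not share a direction. *Mrps18b* (mS40) fell by 0.52 (SE 0.17, adjusted p = 0.033, edgeR quasi-likelihood test, Benjamini-Hochberg adjusted), with an adjusted p of up to 0.15 when a library was left out. *Mrps18c* (bS18m) and *Mrps18a* (mL66) differed by 0.31 (SE 0.15, adjusted p = 0.13) and 0.20 (SE 0.11, adjusted p = 0.16) in the same edgeR test. *Mrps30* differed by -0.07 (SE 0.17) and *Mrps36*, the subunit of alpha-ketoglutarate dehydrogenase, by 0.23 (SE 0.13), with adjusted p of 0.77 and 0.16 in that test.

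By position, the calls were set beside the median difference of the other genes of the same chromosome. The share of those genes called was not computed by chromosome. Over all genes, 21.7% were called higher and 21.2% lower. On chromosome 4 the other tested genes had a median log2 difference of -0.61, and all 4 members there, *Mrpl50*, *Mrpl37*, *Mrpl20* (bL20m) and *Mrps15* (uS15m), were called lower. *Mrpl20* differed by -0.44 (SE 0.14, adjusted p = 0.032, edgeR quasi-likelihood test, Benjamini-Hochberg adjusted) and *Mrps15* by -0.43 (SE 0.14, adjusted p = 0.034, same edgeR test). By clone, *Mrpl20* was not called in Vcam1KO2 (adjusted p = 0.081, same edgeR test), where its libraries overlapped with the control. *Mrps15* was not called in Vcam1KO1 (adjusted p = 0.073, same edgeR test). A chromosome-wide shift and a change of the single gene cannot be told apart in these counts. Without chromosome 4, 12 of 74 members were called higher and 17 lower. On chromosome 11, where the other genes had a median of -0.17, the 11 members had a median of -0.65, with 7 called lower and 0 higher. They include *Mrpl38*, *Mrpl45*, *Mrpl55*, *Mrpl58*, *Mrpl12* and *Mrpl10*. On chromosome 3 the other genes had a median of -0.02 and the 5 members one of -0.59, with 1 called higher and 3 lower. On chromosome 17 the medians were 0.31 and 0.22, with 2 of 8 members called higher and 1 lower. On chromosome 10 they were 0.29 and 0.84, with both members, *Mrpl42* and *Mrpl54*, called higher. On chromosome 1 they were 0.37 and -0.07, with 0 of 5 members called. The remaining chromosomes are not described here.

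Many of these genes start beside another gene read in the opposite direction. Such a partner, with its start at most 1000 bases upstream or 300 bases downstream, was annotated for 23 of the 78 members (29.5%) and for 12.2% of 14238 tested protein-coding genes. *Zfp189*, a zinc finger gene whose start lies 83 bases from that of *Mrpl50*, had 3.32, 5.81 and 4.63 CPM in the control and 1.32 to 3.15 CPM in the clones, a log2 difference of -1.19 (SE 0.37, adjusted p = 0.027, edgeR quasi-likelihood test, Benjamini-Hochberg adjusted). *Zfp661*, 128 bases from *Mrps5*, differed by -0.91 (SE 0.32, adjusted p = 0.042, same edgeR test). *Cyb5rl*, 120 bases from *Mrpl37*, differed by 0.56 (SE 0.24, adjusted p = 0.071, same edgeR test) in Vcam1KO1 and by -1.05 (SE 0.24, adjusted p = 0.0055) in Vcam1KO2, where *Mrpl37* was called lower in both clones. *Apba3*, 26 bases from *Mrpl54*, differed by 0.34 (SE 0.13, adjusted p = 0.063, same edgeR test). *Eme2* beside *Mrps34* and *Lrrc46* beside *Mrpl10* differed by 0.42 and -0.73 and were not called (adjusted p = 0.090 and 0.22, same edgeR test). *Ppp1r10*, beside *Mrps18b*, which was called lower, differed by -0.01 (adjusted p = 0.94, same edgeR test). *Helq*, beside *Mrps18c*, which was not called, was called higher at 0.57 (adjusted p = 0.039, same edgeR test).

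Each clone was also set against the same 3 control libraries, so that the comparisons share their controls and are given side by side. In Vcam1KO1, 11 members were called higher and 25 lower (median log2 difference -0.16), where 59.9% of all genes were called, 29.9% higher and 30.0% lower. In Vcam1KO2, 16 were called higher and 16 lower (median -0.10), where 51.4% of all genes were called, 25.3% higher and 26.1% lower. The shares called, 46.2% and 41.0%, were thus below those of all genes. Called and changed at least 2-fold were 4 members in each clone, against 38.7% and 31.2% of all genes. In Vcam1KO1 these were *Mrps6*, *Mrpl38* at -1.59, *Mrpl50* at -1.30 and *Mrps5* at -1.10, and in Vcam1KO2 *Mrps6*, *Mrpl50* at -1.47, *Mrpl37* at -1.33 and *Mrpl55* at -1.13. *Mrpl54* lay at 1.0 in Vcam1KO2, just under 2-fold. Without library 3 of Vcam1KO1, 12 members were called higher and 21 lower in that clone, and without its library 1 or library 1 of the control 7 were higher. In Vcam1KO2, 8 were higher without its library 2, and 9 without its library 3 or library 3 of the control.

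The clones were then tested against each other. Of the 78 members 15 were called, 5 higher and 10 lower in Vcam1KO1 than in Vcam1KO2, where 38.7% of all genes were called, 20.2% higher and 18.5% lower. The share of members called, 19.2%, was below that of all genes. *Mrps6* alone had a 2-fold difference or more here, 1.33 on the log2 scale (SE 0.15, adjusted p = 2.0e-04, edgeR quasi-likelihood test, Benjamini-Hochberg adjusted). Without library 3 of Vcam1KO1 the counts were 7 and 5, and without library 2 of Vcam1KO2 they were 3 and 4. Higher calls were also 3 without library 1 of either clone, and lower calls were 6 without library 3 of Vcam1KO2 and 16 without library 2 of the control.

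The lowest of these differences was that of *Mrps26* (mS26, chr2:130563742-130568695). It had 68.1, 80.1 and 60.2 CPM in the control libraries, 41.7, 43.4 and 39.6 CPM in Vcam1KO1 and 64.7, 76.8 and 98.8 CPM in Vcam1KO2. Vcam1KO1 lay below both other groups, which overlapped. The difference between the clones was -0.95 (SE 0.16, adjusted p = 0.0020, edgeR quasi-likelihood test, Benjamini-Hochberg adjusted). *Mrpl38*, *Mrps28* (bS1m), *Mrpl15* (uL15m) and *Mrpl12* were lower in Vcam1KO1 by -0.70 (SE 0.12), -0.68 (SE 0.16), -0.60 (SE 0.17) and -0.55 (SE 0.19), with adjusted p of 0.0018, 0.0099, 0.020 and 0.046 in the same edgeR test, and their libraries did not overlap between clones. *Mrps28* and *Mrpl15* overlapped with the control in Vcam1KO1. *Mrpl37*, *Mrpl55* and *Mrpl10*, all lower than the control in both clones, were higher in Vcam1KO1 than in Vcam1KO2 by 0.65 (SE 0.11), 0.58 (SE 0.13) and 0.29 (SE 0.09), with adjusted p of 0.0014, 0.0072 and 0.032 in that test. *Mrps5*, *Mrpl13*, *Mrpl14*, *Mrpl21* and *Mrpl30* made up the rest, at -0.49 to -0.39.

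**Figure D4:**
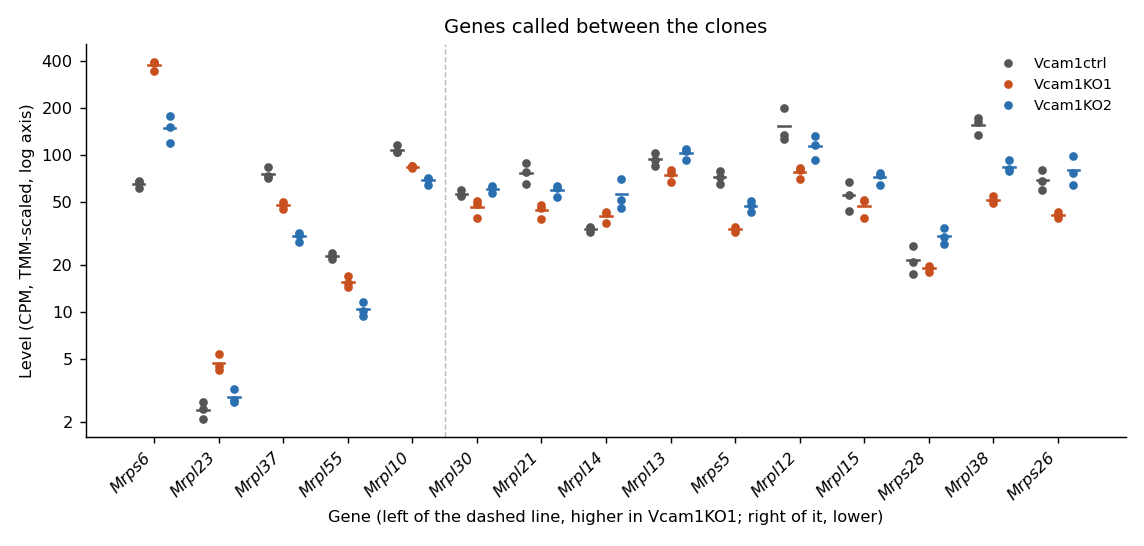
Levels on a log axis of the 15 members called between Vcam1KO1 and Vcam1KO2, with the control beside them; points are libraries and bars are group means. *Mrps26*, at the right, has 39.6 to 43.4 CPM in Vcam1KO1 and 64.7 to 98.8 CPM in Vcam1KO2.

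*Mrpl23* (uL23m, chr7:142532686-142540747) was the fifth gene higher in Vcam1KO1, by 0.72 (SE 0.20, adjusted p = 0.019, edgeR quasi-likelihood test, Benjamini-Hochberg adjusted), and it was the least counted. It had 2.42, 2.07 and 2.66 CPM in the control, 5.44, 4.52 and 4.26 CPM in Vcam1KO1 and 2.76, 2.66 and 3.22 CPM in Vcam1KO2. Of its 31-base stretches 53% also occur in the processed pseudogene *Mrpl23-ps1*, which had 32.4, 30.2 and 32.5 CPM in the control, 22.0, 20.9 and 24.9 CPM in Vcam1KO1 and 22.2, 27.1 and 22.7 CPM in Vcam1KO2. Reads of the 2 could have been exchanged in the estimates. With the counts of both added, the difference of Vcam1KO1 from the control changed sign, from 0.99 (SE 0.20, adjusted p = 0.0021, same edgeR test) to -0.32 (SE 0.11, adjusted p = 0.035). The difference between the clones was then 0.02 (SE 0.11, adjusted p = 0.89, same edgeR test) and no longer called, with sums of 27.4, 25.4 and 29.2 CPM in Vcam1KO1 and 24.97, 29.8 and 25.9 CPM in Vcam1KO2. Vcam1KO2 against the control also changed sign, from 0.27 (adjusted p = 0.29) to -0.34 (adjusted p = 0.030), as did both clones together, from 0.68 (adjusted p = 0.091) to -0.33 (adjusted p = 0.031), in that test. This sum was chosen after the values were seen. *Mrpl53* shares 100% of its stretches with the model *Gm42688* and is likewise uncertain.

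The other genes of mitochondrial translation were read from lists of their own. Of 5 mitoribosomal proteins that carry no *Mrp* symbol, 1 was called lower, *Aurkaip1* at -0.46 (SE 0.13, adjusted p = 0.016, edgeR quasi-likelihood test, Benjamini-Hochberg adjusted). *Chchd1* and *Gadd45gip1* differed by -0.47 and -0.46 (SE 0.18 each, adjusted p = 0.058 and 0.059, same edgeR test). *Ptcd3* differed by 0.11 (SE 0.15, adjusted p = 0.58) and *Dap3*, a protein of the small subunit, by -0.05 (SE 0.10, adjusted p = 0.69) in that test. By clone, 3 of the 5 were called lower in Vcam1KO1 and 1 in Vcam1KO2, where 30.0% and 26.1% of all genes were called lower. Of 24 assembly factors, 2 were called higher and 8 lower. *Ngrn*, needed for the 16S ribosomal RNA, had 31.2, 46.1 and 34.2 CPM in the control and 12.01 to 18.5 CPM in the clones, and the GTPase gene *Mtg1* had 19.3 to 22.5 and 9.07 to 13.1 CPM. They fell by 1.36 (SE 0.17, adjusted p = 2.3e-04) and 0.93 (SE 0.15, adjusted p = 0.0011) on the log2 scale in the same edgeR test, whereas *Dhx30*, an RNA helicase gene, rose by 0.36 (SE 0.09, adjusted p = 0.0097).

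Of 18 translation factors 3 were called higher and 1 lower. *Guf1*, the mitochondrial relative of the back-translocating factor EF4, had 12.3 to 13.4 CPM in the control and 26.0 to 33.7 CPM in the clones, a log2 difference of 1.29 (SE 0.13, adjusted p = 6.2e-05, edgeR quasi-likelihood test, Benjamini-Hochberg adjusted). *Tufm*, the elongation factor that brings charged tRNA to the ribosome, was the 1 called lower, at -0.48 (SE 0.09, adjusted p = 0.0030, same edgeR test). Of 17 aminoacyl-tRNA synthetases 2 were called higher and 7 lower, among them *Iars2* at 0.65 and *Wars2* at -0.99. Of 14 genes for transcription and maintenance of mitochondrial DNA, 3 were called each way. Of 12 regulators of mitochondrial biogenesis 1 was called higher, *Ppargc1a* at 2.44 (SE 0.64, adjusted p = 0.013, same edgeR test), a coactivator of mitochondrial gene programs, and 6 lower, with *Myc* at -1.67 (SE 0.54, adjusted p = 0.031). In the list for mitochondrial mass and import 2 of 18 were called higher and 7 lower, and in that for the mitochondrial stress response 0 and 4 of 11. All these counts stand beside the 21.7% of all genes called higher and the 21.2% called lower, and no list was tested against other genes.

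Set beside the 2 lists nearest to them, the mitochondrial ribosomal protein genes had calls in both directions. Of 78 tested genes of the cytosolic ribosome, 0 were called higher and 53 lower (median log2 difference -0.84) in the edgeR quasi-likelihood test. Of 78 tested nuclear genes for subunits of the respiratory chain and ATP synthase, 33 were called higher and 5 lower (median 0.24). Called and changed at least 2-fold were 26 (33.3%) of the cytosolic list and 1 (1.28%) of the respiratory list, beside 3 (3.85%) of the members. The interquartile ranges of the log2 differences were 0.45, 0.52 and 0.66. Small changes were thus shared with the respiratory list. Of the 13 messages that mitochondrial ribosomes translate, 5 were called higher and 0 lower (median 1.12), and their summed level ran from 3813 to 8156 CPM in the control, from 12180 to 21366 CPM in Vcam1KO1 and from 6533 to 18330 CPM in Vcam1KO2, where Vcam1KO2 overlapped with the control. The 2 mitochondrial ribosomal RNAs, of which libraries of messenger RNA hold only a remnant, gave 1 lower call. These counts and medians are descriptions, and no test between the lists was run.

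**Figure D5:**
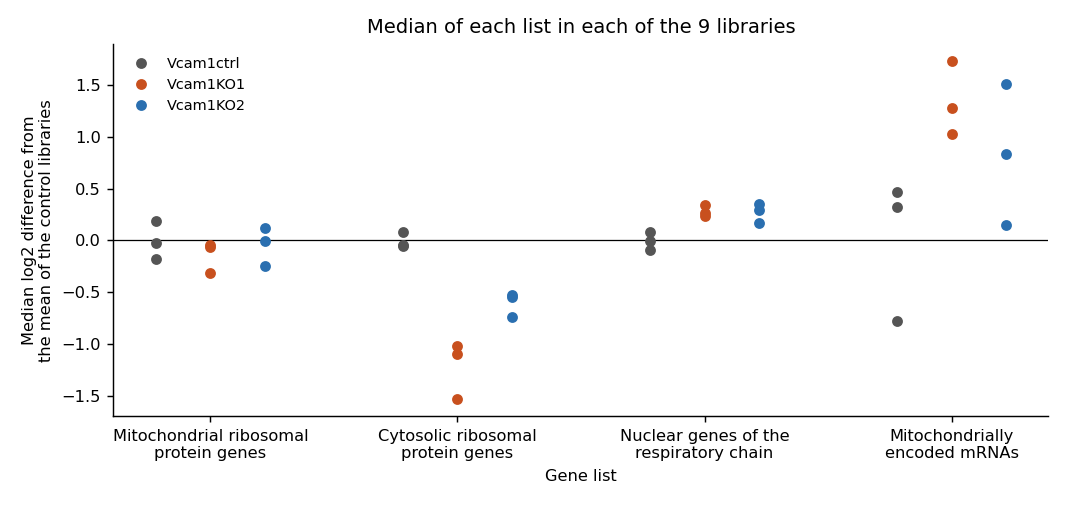
Median log2 difference of each list from the mean of the control libraries, 1 point for each library. The mitochondrial ribosomal protein genes lie between -0.31 and 0.19 in all 9 libraries with the groups overlapping, while the cytosolic list lies between -1.53 and -0.52 in the clones.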

How the data were processed

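RNA was sequenced from PPTR cells, 3 libraries each of the control and of the clones Vcam1KO1 and Vcam1KO2, as stranded paired-end messenger RNA libraries. The deposited values are estimated counts per gene symbol that the authors made with kallisto 0.46.1 on a GRCm38 (mm10) transcriptome; how transcripts were summed to genes was not given in the sources used here. All values were whole numbers as deposited, and 0 columns of values were left unused. Groups were taken from the sample titles. Part of the line's genotype is not reported here. The labels do not tie libraries to cultures, and the p-values measure the spread between these libraries.

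Counts were scaled by TMM factors, genes of low count were removed with filterByExpr, leaving 17672, and edgeR's quasi-likelihood test (edgeR 4.0.16, limma 3.58.1, R 4.3.3) was run two-sided with Benjamini-Hochberg adjustment over all of them at 0.05. Vcam1KO against the control was fitted with both clones as 1 group, and the other comparisons with 3 groups. SEs are the log2 difference divided by the square root of F. CPM are TMM-scaled and not corrected for length. The named members were the 8 called highest and the 8 called lowest without overlap of libraries, up to 5 each way called between clones without overlap, the *Mrps18* paralogues, *Mrps30*, *Mrps36*, *Mrpl12*, *Mrpl45*, *Mrpl58* and the 3 highest levels per kilobase, with up to 2 genes each way from every other mitochondrial list; *Mrps15* and *Mrpl20* and a few others in lists were named after their values were seen. The members, lists and tests were chosen with earlier results of these data known.

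Positions came from a GENCODE vM21 annotation of GRCm38, whereas the counts used a later release. Promoters are RefSeq GRCm38.p6 sequences, matched by symbol for 69 of 78 members. Shared stretches of 31 bases were counted between reference transcripts. Alternatives were DESeq2 1.42.0, limma-voom, other scalings, no filter and leaving out each library. The scripts were tested on simulated data. No pair of libraries of 1 group agreed within sampling noise (chi-square per degree of freedom 36.4 to 280). The study tested its own data with limma-voom. Python 3.11.15, numpy 2.4.6, pandas 2.3.3, scipy 1.17.1 and matplotlib 3.10.9 were used for summaries and plots.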

Additional observations from a re-analysis of the deposited data

Results flagged for a closer look

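Among 61 groups of 6 libraries examined, 2 had a library far from the others by Dixon's ratio, and chance gives about 1 in 20 groups. Among the 6 Vcam1KO libraries, library 3 of Vcam1KO2 had 81.6 CPM of *Mrpl18*, and library 3 of Vcam1KO1 had 37.4 CPM of *Mrpl45*.

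The other results listed here are differences between the clones that passed edgeR's quasi-likelihood test of Vcam1KO1 against Vcam1KO2. On the log2 scale, Vcam1KO1 minus Vcam1KO2 was 1.33 for *Mrps6*, 0.72 for *Mrpl23*, 0.65 for *Mrpl37*, 0.58 for *Mrpl55* and 0.29 for *Mrpl10*. For *Mrpl23* it was 0.02 and no longer called (adjusted p = 0.89, edgeR) when the counts of *Mrpl23-ps1* were added. It was -0.95 for *Mrps26*, -0.70 for *Mrpl38*, -0.68 for *Mrps28*, -0.60 for *Mrpl15*, -0.55 for *Mrpl12* and -0.49 for *Mrps5*. Outside the members it was 1.87 for *Ppargc1a*, 1.12 for *Mterf2*, -0.45 for *Chchd1*, -0.52 for *Trmt2b*, -1.05 for *Hspa9*, -1.63 for *Myc* and -2.64 for *Chac1*.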

How the results depend on the processing

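Across 8 alternatives and 9 fits that left out 1 library, 173 counts and medians stayed within their limits and 22 moved. Against the control, 12 higher calls became 5 without the low-count filter. Leaving out a library gave 5 to 14 higher and 12 to 23 lower calls for Vcam1KO, 7 to 12 and 21 to 28 for Vcam1KO1, and 8 to 18 and 13 to 22 for Vcam1KO2. Between the clones, 5 higher calls became 3 without the filter and 10 lower became 6 with total counts as the only scaling, with 3 to 7 higher and 4 to 16 lower when a library was left out. The cause was not tested. The split moved from 16 higher and 16 lower in Vcam1KO2 to 13 and 21 with upper-quartile scaling, and from 5 and 10 between the clones to 5 and 6 with total counts and 6 and 7 with the upper quartile. Limma-voom called 12 higher and 21 lower in Vcam1KO, DESeq2 12 and 26, and the average of the clones' contrasts 16 and 26. Of the named members' results, 1635 were unchanged in call and direction, 88 lost and 14 gained a call, 3 reversed and 22 moved, the last being sign changes of differences not called and the subunit ratios without *Mrps6*. With the *Mrpl23-ps1* counts added, chosen after seeing the data, *Mrpl23* against the control was -0.32 in place of 0.99 in Vcam1KO1, -0.34 in place of 0.27 in Vcam1KO2 and -0.33 in place of 0.68 in both, and between the clones 0.02 in place of 0.72. No paired analysis was possible because the labels give no replicate numbers shared between groups.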
